A study of Mus musculus with 11 samples.

Results

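The genes described here are 7 that the intestinal epithelium is known to switch on in contact with gut bacteria: the oxidase gene Duox2 and its maturation factor Duoxa2, the inducible nitric oxide synthase gene Nos2, the serum amyloid A genes Saa1, Saa2 and Saa3, and AA467197. They were taken by symbol from the 24294 gene symbols of the deposited expression table, and 7 of 7 were found. The study sequenced RNA of mouse small intestine: 3 libraries carry the label ND, 4 the label HFD and 4 the label HLJDD, 11 in all. HLJDD matches the initials of Huang Lian Jiedu Decoction, the herbal preparation in the series title, which concerns obese mice. The labels do not spell out ND or HFD, and they give neither the diet of the HLJDD mice nor the strain, age, dose, length of treatment or stretch of small intestine. Nor do they say that each library came from a separate animal, so a p-value here speaks for the spread among libraries of a label, and that spread may be technical.

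In the gut, bacteria that settle close to the epithelium are sensed through pattern receptors and through interleukin-22, a cytokine from lymphocytes of the lamina propria that acts on epithelial cells by way of the transcription factor Stat3. The epithelium answers with antimicrobial lectins, with hydrogen peroxide from the Duox2 enzyme, with nitric oxide and with serum amyloid A, a small secreted protein that carries retinol and lipid. The ileum, the last stretch of the small intestine, carries more bacteria than the stretches before it and is the usual site of this programme.

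The 5 genes Duox2, Duoxa2, Nos2, Saa1 and AA467197 were lower in HFD and in HLJDD than in ND, by 7.53-fold to 523-fold in mean level. The largest fold, for Saa1 in HLJDD, rests on 20 reads in that group. Markers of the distal and proximal small intestine also differed between ND and the other groups. A difference in the stretch sampled therefore cannot be told apart from a difference between the groups. Saa2 was seen in the ND libraries only, at a low level, and Saa3 did not differ detectably between groups. No member differed detectably between HLJDD and HFD. Libraries of whole gut tissue cannot tell fewer cells of a type from less RNA per cell. Each member in each library is shown in the plot of levels.

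**Figure D1:**
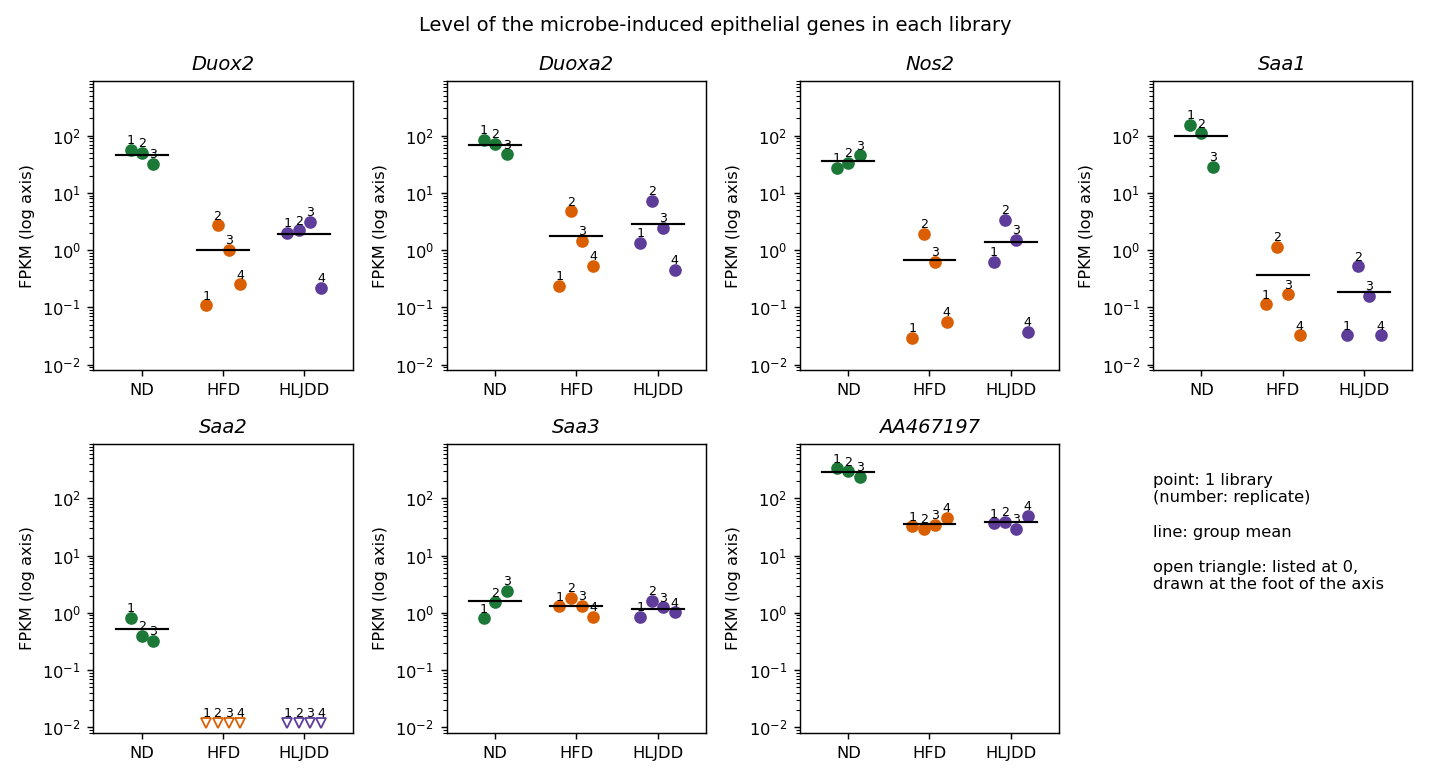
Level of each of the 7 genes (FPKM, log axis) in the 3 ND, 4 HFD and 4 HLJDD libraries; points are single libraries with their replicate number, lines are group means, and open triangles are libraries listed at 0. The ND libraries stand above all HFD and HLJDD libraries for 6 genes, and the 3 groups overlap for Saa3.

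Duox2 and Duoxa2 lie head to head on chromosome 2 of mm10 (GRCm38). Duox2 runs on the minus strand from 122279247 to 122298449, Duoxa2 on the plus strand from 122298900 to 122302885, and 450 bases separate the annotated genes. The Duoxa2 gene also overlaps Duoxa1, so reads there could have been counted for either gene or for neither, depending on settings that are not given. The stretch before the RefSeq start of Duoxa2 is shown because it lies between these divergent genes, whose levels moved together. It is chr2:122298650-122298899, plus strand, from RefSeq on GRCm38.p6, with a match to the TATA box letters TATAAA in capitals at 30 to 25 bases before the start.
Duoxa2: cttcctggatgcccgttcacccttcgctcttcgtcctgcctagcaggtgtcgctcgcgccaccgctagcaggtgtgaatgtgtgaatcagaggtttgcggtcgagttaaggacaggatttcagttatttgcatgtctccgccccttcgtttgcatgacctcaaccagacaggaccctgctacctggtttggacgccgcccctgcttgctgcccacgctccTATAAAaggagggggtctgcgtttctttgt
Among 32851 RefSeq promoter windows of 250 bases, 12.4% hold TATAAA on either strand.

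Duox2 is the membrane oxidase that releases hydrogen peroxide at the surface of intestinal epithelial cells. Its level was 56.4, 50.3 and 32.3 FPKM in ND replicates 1, 2 and 3, where FPKM is a read count scaled by gene length and library total. It was 0.108, 2.72, 1.02 and 0.252 FPKM in HFD replicates 1 to 4, and 1.99, 2.22, 3.12 and 0.223 FPKM in HLJDD replicates 1 to 4. Every ND library was above every other library, and within HFD and HLJDD the lowest libraries were HFD replicates 1 and 4 and HLJDD replicate 4. These values rested on 7298 to 12094 reads in ND and on 21 to 720 reads elsewhere, worked out from the FPKM values. The mean was 46.3 ± 12.5 FPKM in ND (SD, n = 3), 1.02 ± 1.2 in HFD (SD, n = 4) and 1.89 ± 1.21 in HLJDD (SD, n = 4). Duox2 fell 45.2-fold in HFD, a log2 change of -4.68 ± 0.45 (SE), and 24.5-fold in HLJDD, a log2 change of -4.13 ± 0.45. Without HFD replicate 2 the fold in HFD was 101. Here a log2 change is the difference between group means of log2(FPKM + 1), which understates the change of low genes. The limma test with Benjamini-Hochberg adjustment over all kept genes gave adjusted p = 0.000121 and 0.000323, against a threshold of 0.05.

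Duoxa2 encodes the factor that brings Duox2 out of the endoplasmic reticulum to the cell surface. Its level was 85.4, 72.3 and 47.4 FPKM in the 3 ND libraries in order of replicate number. It was 0.239, 4.80, 1.46 and 0.531 FPKM in HFD and 1.33, 7.33, 2.49 and 0.454 FPKM in HLJDD. The same 3 libraries were lowest as for Duox2, and ND did not overlap the other groups. Duoxa2 fell 38.9-fold in HFD (log2 change -4.89 ± 0.58, limma adjusted p = 0.000437) and 23.6-fold in HLJDD (-4.42 ± 0.58, adjusted p = 0.000829). These folds were 92.0 without HFD replicate 2 and 48.0 without HLJDD replicate 2. The ratio of Duox2 to Duoxa2, both per length, was 0.661 to 0.695 in ND, 0.454 to 0.699 in HFD and 0.303 to 1.49 in HLJDD. The ratio was thus nearly the same in the 3 ND libraries and most spread in HLJDD. The related genes Duox1 and Duoxa1 had at most 13 and 4 reads in any library. Duox2 and Duoxa2 thus made up nearly all of the dual oxidase reads that were counted.

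Nos2 (chr11:78920787-78960254, plus strand) makes nitric oxide from arginine and is known in the gut from epithelial cells and from activated macrophages. Its level was 27.6, 33.7 and 45.5 FPKM in ND, 0.0292, 1.95, 0.631 and 0.0562 in HFD, and 0.628, 3.37, 1.53 and 0.0378 in HLJDD, in order of replicate number. ND was again above all other libraries, while HFD replicates 1 and 4 and HLJDD replicate 4 held only 4 to 9 reads. Among the ND libraries the order was opposite to that of Duox2, with replicate 3 highest for Nos2 and lowest for Duox2. Nos2 fell 53.4-fold in HFD (log2 change -4.57 ± 0.46, limma adjusted p = 0.000162) and 25.6-fold in HLJDD (-4.11 ± 0.46, adjusted p = 0.000359). The fold in HFD was 149 without HFD replicate 2, and that in HLJDD 48.7 without HLJDD replicate 2.

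The serum amyloid A genes lie in a cluster on chromosome 7: Saa3 at 46711998 to 46715700 (minus strand), Saa1 at 46740497 to 46742980 (minus) and Saa2 at 46751790 to 46754313 (plus). Saa1 and Saa2 are close copies, with 572 of 606 aligned transcript bases alike (94.4%). No stretch of 100 bases of Saa1 recurs in Saa2, but 74 of 560 stretches of 50 bases do (13.2%). No source used here gives the read length or the handling of reads with several matches, so the split of reads between Saa1 and Saa2 is uncertain. Their upstream sequences are shown because the pair behaved unlike Saa3: capitals mark matches to TTGCNNAA, the letters of a C/EBP site, read on either strand. The stretches are chr7:46742981-46743230 (minus strand) for Saa1, chr7:46751583-46751789 (plus) for Saa2 and chr7:46715701-46715926 (minus) for Saa3, from RefSeq on GRCm38.p6, each without annotated exons.
Saa1: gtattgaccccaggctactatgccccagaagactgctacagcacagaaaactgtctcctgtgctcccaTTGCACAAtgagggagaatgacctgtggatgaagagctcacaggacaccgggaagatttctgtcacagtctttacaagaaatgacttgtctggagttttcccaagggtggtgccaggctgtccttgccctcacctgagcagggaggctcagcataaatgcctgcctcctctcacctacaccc
Saa2: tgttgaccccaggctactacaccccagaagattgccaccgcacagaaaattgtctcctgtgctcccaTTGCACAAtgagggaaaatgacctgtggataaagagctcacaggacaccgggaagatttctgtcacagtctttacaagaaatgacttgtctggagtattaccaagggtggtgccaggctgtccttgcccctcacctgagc
Saa3: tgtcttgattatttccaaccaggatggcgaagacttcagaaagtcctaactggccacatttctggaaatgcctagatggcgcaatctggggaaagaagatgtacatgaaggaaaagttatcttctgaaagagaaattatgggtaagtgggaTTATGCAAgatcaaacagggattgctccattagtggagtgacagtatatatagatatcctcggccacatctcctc
Over the full windows of 250 bases, Saa1 and Saa2 matched at 238 of 249 aligned bases (95.6%). The full Saa2 window includes 43 exon bases that are not printed. Both genes held the C/EBP match at nearly the same place, 182 and 183 bases before the start. In Saa3 the match lay on the opposite strand, 99 bases before the start. Of all 32851 windows, 9.56% hold these letters. No window of the 6 members found in the RefSeq promoter table held TTCNNNGAA, the letters of a STAT site, which 7.02% of all windows hold. None held GGGRNWYYCC, a narrow form of the NF-kB site, which 3.9% hold (R is A or G, W is A or T, Y is C or T). Looser forms were not searched. Of the 250 window bases, 222 are exon for Duox2 and 122 for AA467197, so little upstream sequence was searched there.

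Saa1 was the most variable of the members in ND, at 155, 109 and 28.8 FPKM in replicates 1, 2 and 3. It was 0.114, 1.14, 0.170 and 0.0324 FPKM in HFD and 0.0326, 0.522, 0.159 and 0.0327 FPKM in HLJDD. The lowest ND library was thus far above the highest of the other 8, HFD replicate 2, and 3 libraries held a single read. Saa1 had the largest fall of the members, 267-fold in HFD (log2 change -5.94 ± 0.45, limma adjusted p = 2.56e-05) and 523-fold in HLJDD (-6.09 ± 0.45, adjusted p = 1.91e-05). These folds rest on a few reads in the highest library of each group: they were 925 without HFD replicate 2 and 1300.0 without HLJDD replicate 2. It reached the expression filter through ND, since only 1 of the other 8 libraries was at 1 FPKM or above.

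Saa2 was at 0.826, 0.397 and 0.326 FPKM in ND, on 24, 12 and 10 reads, and at 0 reads in all 8 other libraries. It did not reach the filter of 1 FPKM in at least 3 libraries. The folds that follow take the ND reads as exact and leave out the spread between libraries. With 3 reads taken as an upper limit over each group of 4 libraries, Saa2 was at least 19.4-fold lower in HFD and at least 20-fold lower in HLJDD. In a limma fit with no filter it was called lower in both, with adjusted p = 0.00623 in HFD, where that fit called 4.08% of all symbols lower, and 0.00743 in HLJDD, where it called 3.23%.

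Saa3, the copy best known from macrophages, fat and colon epithelium, was at 0.802, 1.54 and 2.43 FPKM in ND, 1.3, 1.84, 1.33 and 0.859 in HFD, and 0.863, 1.63, 1.24 and 1.02 in HLJDD. All 3 groups overlapped, and each library held 15 to 48 reads. The log2 change was -0.12 in HFD (95% interval -0.59 to 0.35, limma adjusted p = 0.693) and -0.21 in HLJDD (-0.68 to 0.26, adjusted p = 0.55). With median-ratio scaling of the libraries the HFD change was 0.02, so its sign turned with the scaling.

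AA467197 (chr2:122636986-122641191, plus strand) encodes a small mitochondrial protein, known in human as NMES1, and hosts the microRNA gene Mir147. It lies 334.1 kb from Duoxa2 on the same chromosome. It was the most abundant member per length, at 337, 295 and 240 FPKM in ND, 32.8, 29.5, 34.5 and 46.2 in HFD, and 37.0, 39.0, 29.1 and 49.4 in HLJDD. The spread within groups was narrow, and unlike Duox2 and Nos2 it was highest in HFD replicate 4 and HLJDD replicate 4. AA467197 fell 8.13-fold in HFD (log2 change -2.99 ± 0.20, limma adjusted p = 8.69e-06) and 7.53-fold in HLJDD (-2.89 ± 0.20, adjusted p = 1.31e-05). It was the 5th gene by p-value of 10764 in both comparisons, although its fold was the smallest of the 5 called members.

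Against ND, 5 of the 7 members were called lower in HFD and 0 higher, where 11.5% of the 10764 kept genes were called lower and 5.06% higher. In HLJDD it was again 5 lower and 0 higher, where 7.79% of kept genes were lower and 4.1% higher. With median-ratio scaling, which moves the median change of all genes in HFD from -0.205 to 0.00245, the background was 11.4% lower and 11.7% higher, and for HLJDD, whose median moved from -0.127 to 0.0205, 9.19% lower and 8.72% higher. The same 5 members were called under it. All ND libraries were above all HFD libraries for 5 of the 6 kept members, Saa1 among them, which reached the filter through ND; this held for 32.9% of kept genes. They were above all HLJDD libraries for the same 5, where it held for 21.3%. Saa2, which was not kept, did not overlap either. Both comparisons use the same 3 ND libraries, so they are not independent of each other. Ordered by log2 change from the largest fall in HFD, Saa1 was gene 3, Duoxa2 gene 7, Duox2 gene 10, Nos2 gene 12 and AA467197 gene 22 of 10764, and Saa3 was gene 6393. An exact two-sided permutation test of single genes gave p = 0.0286 for each of the 6 in either comparison, the smallest value that the 35 arrangements of 3 against 4 libraries allow. Adjusted over the 21 such tests this is 0.0501.

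**Figure D2:**
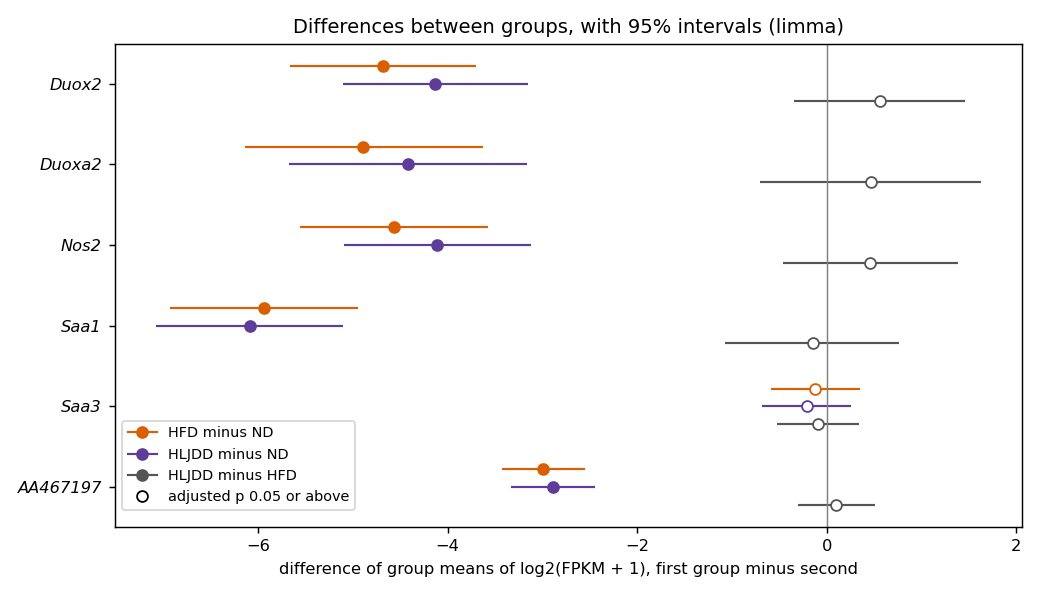
Difference of group means of log2(FPKM + 1) for the 6 members that reached the expression filter, with 95% intervals from limma, for HFD minus ND, HLJDD minus ND and HLJDD minus HFD; open points have an adjusted p of 0.05 or above. The intervals against ND lie below 0 for 5 genes, and all intervals of HLJDD minus HFD include 0.

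Between HLJDD and HFD, 0 of the 7 members and 0 of the 10764 genes (0.0%) passed the limma test with Benjamini-Hochberg adjustment. Of all genes, 186 had an unadjusted p under 0.05, 172 by limma-voom on the recovered reads and 564 with median-ratio scaling, and no kept member was among them in any of the 3. The difference in log2 units was 0.56 for Duox2 (95% interval -0.35 to 1.46), 0.47 for Duoxa2 (-0.70 to 1.63) and 0.46 for Nos2 (-0.46 to 1.38). It was -0.15 for Saa1 (-1.07 to 0.76), -0.09 for Saa3 (-0.52 to 0.34) and 0.10 for AA467197 (-0.30 to 0.51). The means of Duox2, Duoxa2 and Nos2 were 1.84-fold, 1.65-fold and 2.09-fold higher in HLJDD, but single libraries decided these ratios. Without HLJDD replicate 2 the Duoxa2 mean was 1.42 FPKM in HLJDD, below the 1.76 of HFD, with a log2 difference of -0.00, and Nos2 was 1.1-fold higher. Without HFD replicate 2 the ratios were 4.1, 3.9 and 5.83. For Saa1, whose HLJDD mean was 1.96-fold lower, the direction turned without HFD replicate 2 (1.77-fold higher). HFD and HLJDD overlapped for all 7. Of all kept genes, 0.548% were lower in every HLJDD library than in every HFD library and 0.483% were higher. For the oxidase genes and Nos2 these intervals leave room for a rise in HLJDD above that seen here, as well as for none. Exact two-sided permutation tests gave p from 0.371 (Duox2) to 1.0 (Saa2).

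Within the 8 HFD and HLJDD libraries the oxidase genes and Nos2 rose and fell together, though Duox2 was highest in HLJDD replicate 3 and the other two in HLJDD replicate 2. The correlation of log2(FPKM + 1) over these 8 was r = 0.84 for Duox2 with Duoxa2, 0.87 for Duox2 with Nos2 and 0.99 for Duoxa2 with Nos2, given as a description of libraries that differ in depth and makeup. For Saa1 it was 0.57 with Duox2, 0.79 with Duoxa2 and 0.73 with Nos2, and AA467197 went the other way (r = -0.62 with Duox2). Over all 11 libraries Duox2 had r = 0.98 with Duoxa2, 0.98 with Nos2, 0.96 with Saa1 and 0.91 with AA467197, values that include the gap between ND and the rest. For Saa3 and Duox2 it was 0.28 over the 11 and 0.47 over the 8. Over the 8, Saa3 had r = 0.89 with Saa1, which held only 1 to 32 reads in each, and 0.73 with Duoxa2. Over the 11, r for Saa3 was 0.19 with Saa1 and 0.35 with Duoxa2. After removing group means it was -0.35 and 0.36, so Saa3 and Saa1 did not move together in all views.

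Genes outside the 7 whose log2 levels over the 11 libraries were most like Duox2 were Cebpd (r = 0.988), Chic1 (0.988), Znrf2 (0.987), Tifa (0.984) and Tcf7l2 (0.983). This r, and that used below for Nos2 and Saa1, includes the gap between ND and the rest. Cebpd, a C/EBP transcription factor of the acute phase response, was at 6.71 FPKM in ND, 2.5 in HFD and 2.99 in HLJDD, and after removing group means its r with Duox2 was 0.968. Nearest to Nos2 were Wtip (0.989), Casp4 (0.986), Tcf7l2 (0.983), Mfsd4a (0.98) and Myd88 (0.978). Casp4, the caspase that binds bacterial lipopolysaccharide, was at 43.9 FPKM in ND, 12.8 in HFD and 14.0 in HLJDD. Among the nearest to Saa1 were Ifi44 (0.993), Slc51b (0.993), Fabp6 (0.99) and Herc6 (0.987). Slc51b and Fabp6 are bile acid transport genes of the ileum, and Ifi44 and Herc6 are interferon-induced. Chic1, Mfsd4a and Ifi44 reached the filter through ND, with 0 of the other libraries at 1 FPKM or above. After removing group means r stayed at 0.94 for Tifa with Duox2, 0.961 for Casp4 with Nos2 and 0.953 for Slc51b with Saa1. It was lowest for Mfsd4a and Myd88 with Nos2 (0.766 and 0.77) and for Herc6 with Saa1 (0.787).

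Some partners of the oxidases fell with Duox2. Of 14 listed genes of NADPH oxidases and their subunits, 9 reached the filter. Cyba, Noxo1 and Noxa1 fell in both comparisons while 0 rose. Of all kept genes 11.5% fell and 5.06% rose in HFD, and 7.79% fell and 4.1% rose in HLJDD. These shares are the background for the lists below as well. The list's median log2 change in HFD was -0.34, beside -0.20 for all kept genes. Cyba, the membrane subunit shared by several NADPH oxidases, was at 98.6 ± 7.08 FPKM in ND (SD, n = 3), 29.7 ± 11.6 in HFD and 30.5 ± 9.53 in HLJDD (SD, n = 4 each), with limma adjusted p = 0.0026 and 0.00398. Noxo1 and Noxa1, the organizer and activator of the Nox1 oxidase, went from 16.2 and 5.90 FPKM in ND to 7.21 and 2.90 in HFD. Nox1 itself had 17 to 31 reads in each ND library and 0 to 7 in each of the others. The subunit genes of phagocytes had higher means in HFD without passing the test: Ncf1 was at 0.571 FPKM in ND and 3.87 in HFD (limma adjusted p = 0.0735), Ncf4 at 0.537 and 2.92 (0.123) and Cybb at 0.316 and 1.87 (0.101).

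Of 16 kept genes for handling peroxide, Gpx2 fell and Gpx4 rose in both comparisons, and the list's median in HFD was 0.08. Gpx2, the glutathione peroxidase of gut epithelium, was at 938, 903 and 706 FPKM in ND, 13.2 to 96.0 in HFD and 51.9 to 202 in HLJDD, a log2 change of -3.97 ± 0.61 in HFD (limma adjusted p = 0.00153). The ND libraries again stood apart from all others. Median-ratio scaling raised the number of risers in this list in HFD from 1 to 7, with Gpx2 still the 1 that fell.

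Genes around nitric oxide went in both directions. Of 9 kept genes of nitric oxide and arginine metabolism, Gch1 and Arg2 rose and Ddah1 fell in both comparisons, and the median in HFD was -0.04. Gch1, the first enzyme in making tetrahydrobiopterin, a cofactor of nitric oxide synthases, was at 7.96 ± 0.592 FPKM in ND (SD, n = 3) and 18.8 ± 3.46 in HFD (SD, n = 4; limma adjusted p = 0.000811). Arg2, the mitochondrial arginase, was at 142 ± 54.8 FPKM in ND (SD, n = 3) and 509 ± 180 in HFD (SD, n = 4; limma adjusted p = 0.00547). Ddah1, which breaks down an inhibitor of nitric oxide synthases, was at 9.20 FPKM in ND, 1.12 in HFD and 2.19 in HLJDD. Nos1 and Nos3 did not reach the filter. The receptors Scarb1 and Lrp1, the only kept genes of 5 listed beside the serum amyloids, were not called in either comparison.

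**Figure D3:**
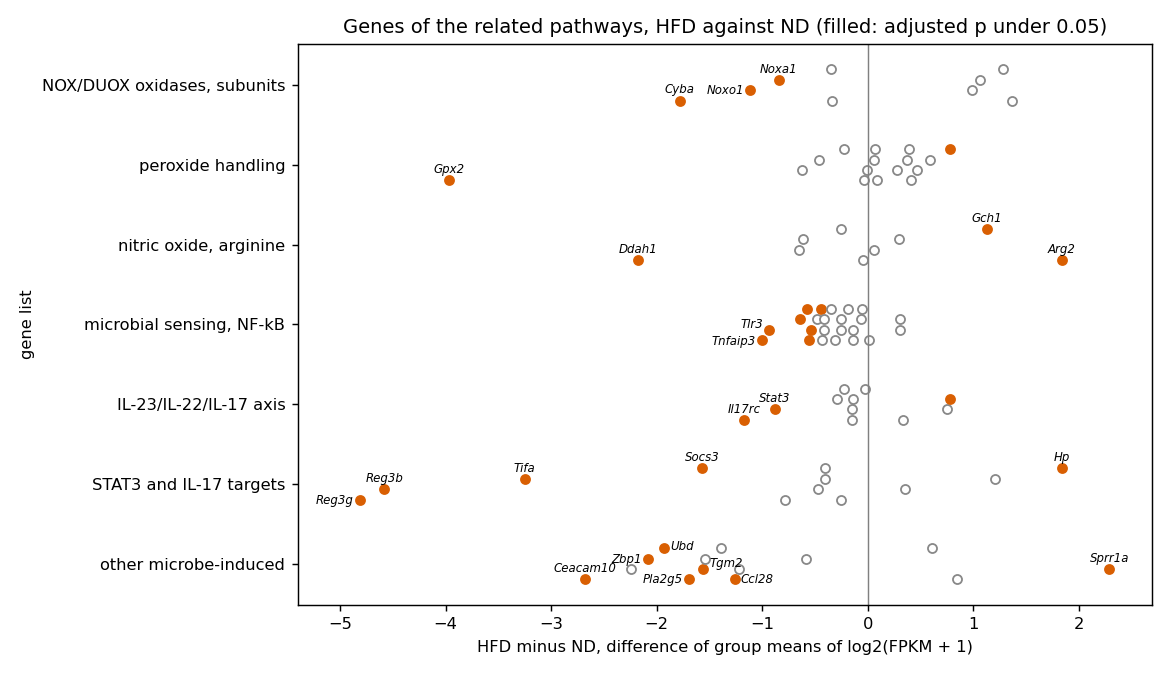
Difference of group means of log2(FPKM + 1), HFD minus ND, for each kept gene of 7 related lists; filled points passed the limma test, open points did not, and genes are spread vertically within a list only for legibility. Called genes of the oxidase and microbial sensing lists lie below 0, and the nitric oxide list has called genes on either side.

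Upstream of the epithelial response, Il22 had 16, 8 and 4 reads in the ND libraries and 0 in all 8 others. With 3 reads taken as an upper limit over the group and the ND reads as exact, it was at least 11.8-fold lower in HFD and 12.2-fold lower in HLJDD. The ND count is low, and it is seen with all 3 ND libraries. Of 11 kept genes of the axis of interleukin-23, interleukin-22 and interleukin-17, 2 fell in both comparisons, Stat3 and the receptor gene Il17rc, and the receptor gene Il10rb rose in HFD. Stat3 was at 31.3 ± 2.11 FPKM in ND (SD, n = 3) and 16.5 ± 1.54 in HFD (SD, n = 4; limma adjusted p = 0.0085). The list's median in HFD was -0.15. Of all kept genes 11.5% fell and 5.06% rose in HFD, so 2 and 1 of 11 are close to the background there.

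Of 12 kept targets of Stat3 and interleukin-17, 4 fell in HFD (Reg3b, Reg3g, Socs3 and Tifa) and Hp rose. Of all kept genes 11.5% fell and 5.06% rose there. The median of the targets was -0.43. In HLJDD Socs3 and Tifa fell and Hp and Bcl3 rose, Bcl3 losing its call with median-ratio scaling (limma adjusted p = 0.0629). Reg3g, a lectin that kills Gram-positive bacteria, was at 8633 to 9158 FPKM in ND, 56.1, 2664, 905 and 74.8 in HFD, and 904, 1147, 1772 and 122 in HLJDD. The lowest libraries were HFD replicates 1 and 4 and HLJDD replicate 4, as for Duox2, and r between the genes over the 8 HFD and HLJDD libraries was 0.96. Reg3g passed in HFD (log2 change -4.81 ± 1.23, limma adjusted p = 0.0215) and not in HLJDD (-3.70 ± 1.23, adjusted p = 0.0718). Tifa, an adaptor in sensing of a bacterial sugar, was at 54.3 ± 1.98 FPKM in ND (SD, n = 3), 5.57 ± 4.04 in HFD and 9.15 ± 4.02 in HLJDD (SD, n = 4 each), with limma adjusted p = 0.000513 and 0.00232. Hp, the haemoglobin-binding acute phase protein haptoglobin, was at 0.307 FPKM in ND, 4.10 in HFD and 10.1 in HLJDD, opposite in direction to Saa1. Adipocyte markers moved with it: 2 of 10 rose in HFD and 6 in HLJDD, beside 5.06% and 4.1% of all kept genes. The sum of these markers was 101 to 114 FPKM in ND, 119 to 171 in HFD and 204 to 326 in HLJDD. Their part in the change of Hp was not tested.

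Of 14 kept genes otherwise reported as microbe-induced, 6 fell in HFD (Ubd, Ccl28, Zbp1, Pla2g5, Tgm2 and Ceacam10) and Sprr1a rose, with a median of -1.47. The same genes except Ccl28 were called in HLJDD. Ubd, a ubiquitin-like protein, lost its call in HFD with median-ratio scaling (adjusted p = 0.0634). Zbp1, a sensor of nucleic acids, was at 27.5 ± 1.13 FPKM in ND (SD, n = 3), 6.81 ± 5.04 in HFD and 3.08 ± 0.776 in HLJDD (SD, n = 4 each). Fut2, which puts fucose on epithelial surfaces, stayed under the filter but had 105 to 445 reads in ND libraries and 5 to 19 in each of the others.

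Beside a share of 11.5% of all kept genes that fell in HFD and 7.79% in HLJDD, genes of microbial sensing and NF-kB signalling were counted. Of 23 kept ones, 7 fell in HFD and 0 rose, with a median of -0.35, and 4 fell in HLJDD. With median-ratio scaling 4 fell and 1 (Chuk) rose in HFD. Their log2 changes in HFD ran from -1.0 (Tnfaip3) to -0.44 (Myd88). Tlr3, the receptor for double-stranded RNA, was at 8.01 FPKM in ND and 3.71 in HFD, and the adaptor Myd88 at 17.2 and 12.4. Relb, Myd88 and Nfkbia lost their calls in HFD with median-ratio scaling (limma adjusted p = 0.206, 0.317 and 0.228), while Tlr3 kept its call (0.00168).

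Markers of epithelium were present throughout: the summed level of 10 epithelial genes was 6180 to 6530 FPKM in ND, 4900 to 7020 in HFD and 4570 to 6720 in HLJDD, and 1 of the 10 (Cldn7) fell. Set against 1000 FPKM of that sum, Duox2 was 9.14, 7.70 and 5.08 in ND and at most 0.486 in any other library. Neutrophil markers were near 0, with none of 11 at the filter and sums of 0.371 to 1.06 FPKM over all libraries. Macrophage markers, 9 of 12 kept, summed to 26.7 to 33.9 FPKM in ND, 24.4 to 90.7 in HFD and 24.6 to 95.1 in HLJDD, and none was called. Among them Lyz2 was at 13.4 FPKM in ND, 35.0 in HFD and 40.0 in HLJDD, while the means of Itgam (2.61, 1.91 and 1.98) and Cd14 (2.61, 2.32 and 1.87) were highest in ND. Their part in the Nos2 difference was not tested. Of 12 genes that respond to tissue handling, 4 (Fos, Fosb, Jun and Atf3) rose in HFD and 2 (Fos and Jun) in HLJDD, and their part was not tested. For the liver, the main source of circulating serum amyloid A, 4 of 12 hepatocyte markers were kept, of which Ttr and Ambp rose in HFD. The 12 markers summed to 72.0 to 79.4 FPKM in ND, 30.2 to 89.5 in HFD and 42.3 to 102 in HLJDD. Among them Alb was at 0.193 to 0.327 FPKM in the ND libraries, where Saa1 was 28.8 to 155. The part of liver RNA in the Saa1 level was not tested.

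Genes that mark stretches of the gut also differed between the groups. Of 11 kept genes of the distal small intestine, 7 fell in HFD and 8 in HLJDD, and their sum was 3140 to 13900 FPKM in ND, 956 to 1700 in HFD and 773 to 1920 in HLJDD. Of 9 kept proximal genes, 7 rose and 1 fell in both comparisons, and their sum was 1700 to 9920 FPKM in ND, 35700 to 48100 in HFD and 29600 to 50900 in HLJDD. A difference in the stretch sampled and a difference between the groups cannot be told apart here. The ND libraries differed among themselves: Fabp6, the ileal bile acid binding protein, was at 9821, 6702 and 397 FPKM in replicates 1, 2 and 3, while in the other 8 libraries it was 0.212 to 4.31. Gata4, a transcription factor of the proximal small intestine, was at 9.75, 15.5 and 24.7 FPKM in the same 3, nearing the 25.9 to 36.6 of the rest. In ND replicate 3, Duox2 was at 32.3, Nos2 at 45.5, Saa1 at 28.8 and AA467197 at 240 FPKM.

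How the members followed distal markers within groups depended on the marker and on the libraries used. After removing group means, r with Fabp6 over the 11 libraries was 0.86 for Saa1, 0.46 for Duox2 and -0.11 for Nos2, as a description. With Slc10a2, the ileal bile acid transporter, it was 0.91, 0.40 and -0.17. With the hormone genes Pyy and Nts the order differed: 0.43 and 0.40 for Saa1, 0.84 and 0.88 for Duox2, and 0.41 and 0.51 for Nos2. Over the 8 HFD and HLJDD libraries alone, r with Fabp6 was 0.33 for Saa1, 0.11 for Duox2 and 0.0 for Nos2. In the same order it was 0.57, 0.81 and 0.53 with Slc10a2, 0.43, 0.68 and 0.43 with Pyy, and 0.48, 0.57 and 0.38 with Nts. With ND replicate 3 as the only ND library, a setting chosen after seeing the data in which that library is assumed to vary like the other groups, limma still called 4 members in HFD and 3 in HLJDD. Nos2 was then at -4.94 and -4.48, Saa1 at -4.52 and -4.67 and AA467197 at -2.73 and -2.63. Duox2 was called in HFD (-4.21, adjusted p = 0.0401) and not in HLJDD (-3.66, adjusted p = 0.0813), and Duoxa2 in neither (-4.41, adjusted p = 0.0897, and -3.94, adjusted p = 0.147).

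**Figure D4:**
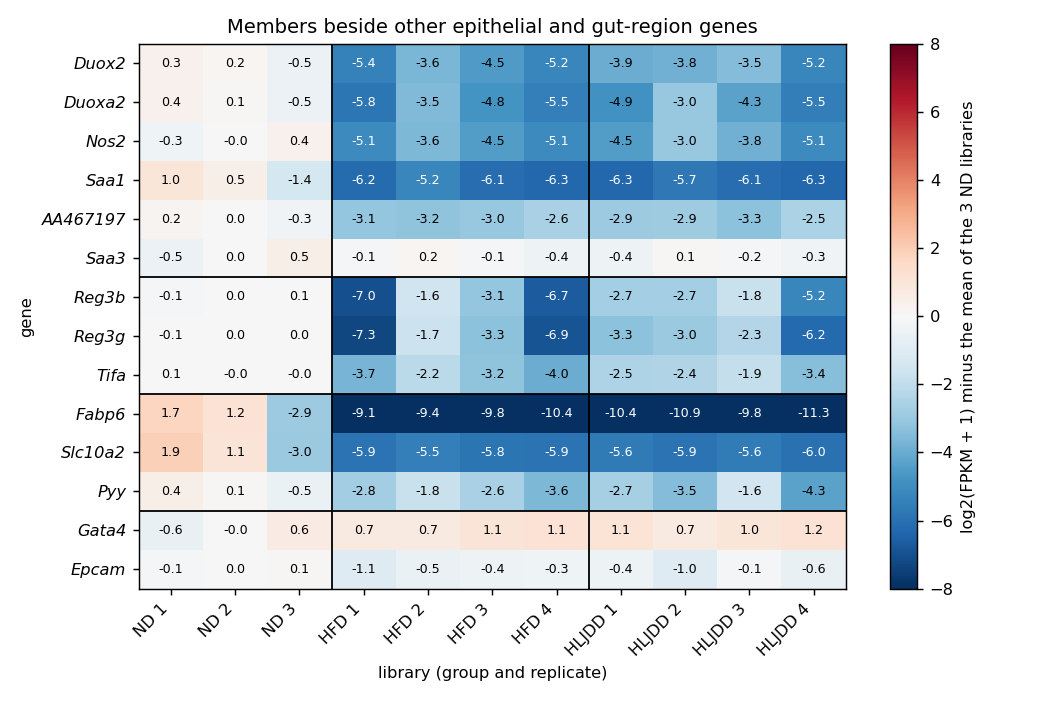
Log2(FPKM + 1) minus the mean of the 3 ND libraries, in each of 11 libraries, for 6 members, the lectins Reg3b and Reg3g with Tifa, the distal markers Fabp6, Slc10a2 and Pyy, the proximal marker Gata4 and the epithelial marker Epcam; the colour scale ends at 8 in either direction. Duox2, Duoxa2 and Nos2 are least reduced in HFD replicate 2 and in HLJDD replicates 2 and 3, Saa1 follows Fabp6 within ND, and Saa3 stays near 0.

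The libraries held 30100524 to 37940746 reads in genes. The share of mitochondrial transcripts was highest in HLJDD replicate 2 (40.7%) and HFD replicate 1 (32.4%), with 10.4% to 19.3% elsewhere. Without these 2 libraries all 5 calls against ND held in both comparisons, and the HLJDD minus HFD difference was -0.30 for Duoxa2 and -0.08 for Nos2, against 0.47 and 0.46 with them.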

How the data were processed

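Per the submitters' processing notes, reads were handled with fastp (trimming), HISAT2 (alignment), HTSeq (counting) and R 3.2.0 on mm10. No source used here gives the annotation, strand setting or read length. Values were deposited as FPKM, 1 per gene symbol and library, and the authors' single tables and series table differed in 0 values. FPKM steps gave whole reads for 24294 of 24294 symbols (largest distance 0.0017 reads, tolerance 0.01). A symbol with reads in only 1 library passes this by construction, so the count is no check of such symbols. Libraries were grouped by title. Genes at 1 FPKM or more in at least 3 libraries were kept (10764), and log2(FPKM + 1) was tested with limma 3.58.1 (R 4.3.3), variance trend, all 11 libraries in 1 fit, two-sided, Benjamini-Hochberg adjustment over all kept genes. On simulated data of 10764 genes for HFD against ND, 100% of 200 genes changed by 2 (log2) were recovered and 0.123% of the others called. The mean size of the estimates for the changed genes was 1.71. Every gene was simulated with the same relative spread beyond counting error, and no shift of all genes between groups was added. The simulation thus does not cover the wide spread of members within HFD and HLJDD. Permutation tests used scipy 1.17.1. Limma-voom on the recovered reads called 1713 genes in HFD and 1195 in HLJDD against ND.

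The members and gene lists were chosen with earlier results of these data known. Genes named are all members, up to 4 kept genes per list with the smallest adjusted p in HFD against ND, main markers of other cell types and the 5 nearest neighbours of Duox2, Nos2 and Saa1, of which 1 is not reported here; Ubd, Ccl28, Tgm2, Bcl3, Reg3b, Myd88, Nfkbia, Chuk, Ncf4, Cybb and the genes under the filter were added after their values were seen. Alternatives were a pseudocount of 0.1, other filters, TPM, median-ratio and quantile scaling, the 2 groups alone, a replicate block, voom, and fewer libraries; folds of means without each library were added after seeing the data. Promoters came from a RefSeq table of GRCm38.p6, which matched 6 of 7 members (Nos2 did not match); the Duox2 and AA467197 windows overlap exons and were not printed. An NF-kB site was searched as GGGRNWYYCC only, on either strand. Gene positions come from GENCODE.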

Additional observations from a re-analysis of the deposited data

How the results depend on the processing

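The 5 calls against ND (Duox2, Duoxa2, Nos2, Saa1 and AA467197) kept direction and threshold in HFD and in HLJDD under every alternative except ND replicate 3 alone, leaving out any single library included. Over all alternatives the log2 change in HFD ran from -6.40 to -4.21 for Duox2, -6.06 to -4.41 for Duoxa2 (highest adjusted p = 0.0897), -7.29 to -4.32 for Nos2, -8.69 to -4.52 for Saa1 and -3.13 to -2.73 for AA467197, the largest falls of Duox2 coming from limma-voom. With no filter Saa2 entered and 6 members were called. With ND replicate 3 alone, added after seeing the data, 4 members were called in HFD and 3 in HLJDD, of 37 and 34 genes in all.

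Counts of all genes moved more than the members. In HFD against ND the count of 1786 became 2804 with quantile normalization and 3349 without the 2 most mitochondrial libraries, and ran from 617 to 3314 when single libraries were left out (617 without ND replicate 1, 638 without ND replicate 2, 1189 without HFD replicate 3, 3314 without HLJDD replicate 2). In HLJDD against ND the 1279 became 2297 and 2556, and ran from 435 to 1695 (435 without ND replicate 1, 438 without ND replicate 2, 802 without HLJDD replicate 1, 677 without HLJDD replicate 4). Between HLJDD and HFD the count of 0 became 1 without the 2 most mitochondrial libraries and 0 to 1 when single libraries were left out. The cause was not tested.

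Signs turned only among changes that were not called. In HFD against ND, Saa3 was 0.02 with median-ratio scaling and ran from -0.36 to 0.11 (without ND replicate 3) when single libraries were left out; in HLJDD against ND it ran from -0.45 to 0.02 (without ND replicate 3). Between HLJDD and HFD without the 2 most mitochondrial libraries, Duoxa2 was -0.30 and Nos2 -0.08. With single libraries left out, that difference ran from -0.00 (without HLJDD replicate 2) to 0.91 for Duoxa2, -0.28 to 0.08 (without HFD replicate 2) for Saa1, -0.19 to 0.01 (without HFD replicate 2) for Saa3 and -0.02 (without HLJDD replicate 4) to 0.23 for AA467197. The cause was not tested.

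With the replicate number as a block, 1080 genes were called in HFD and 724 in HLJDD against ND, the 5 members among them, with Duox2 at -4.41 and -3.85. Deviations of same-numbered libraries correlated at -0.219 to 0.0437 in pairs with ND and -0.185 to 0.366 between HFD and HLJDD, so not every pair was above 0.1, and the number was not taken as a pairing. Saa2 and Saa3 rest on few reads in every library, at most 24 and 48. Saa1 had at most 32 reads in an HFD library and 13 in an HLJDD library.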
